A study of Mus musculus with 8 samples.

Results

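Cyclic guanosine monophosphate (cGMP) signalling was examined in primary murine articular chondrocytes through 8 genes, taken by symbol from the 54658 gene symbols of the count table. These were *Nppc*, *Npr1*, *Npr2*, *Npr3*, *Prkg1*, *Prkg2*, *Pde5a* and *Vasp*. The rule used symbols and not values, but the 8 genes were chosen with earlier results of these data known. After IL-1β, both cGMP-dependent kinases and the receptor *Npr2* were downregulated, the phosphodiesterase *Pde5a* was upregulated, and *Vasp* had nearly the same mean in both groups. *Npr3* was also lower in every IL-1β sample, from few reads. *Npr1* and *Nppc* were at or close to the limit of detection in both groups.

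cGMP is made by guanylate cyclases of 2 kinds. Natriuretic peptides activate cyclases that are themselves membrane receptors, and nitric oxide activates a soluble cyclase in the cytosol. C-type natriuretic peptide (CNP), encoded by *Nppc*, acts on NPR2, while NPR1 responds to the atrial and B-type peptides and NPR3 lacks a cyclase and clears peptides from the medium. cGMP then activates the kinases PRKG1 and PRKG2, and phosphodiesterases such as PDE5A break it down. In cartilage the pathway is best known from the growth plate, where CNP, NPR2 and PRKG2 promote the growth of long bones and oppose signalling by the FGF receptor FGFR3.

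RNA-Seq covered 4 samples treated with IL-1β at 1 ng/mL for 24 h and 4 treated with vehicle for the same time. All cells came from the femoral head cartilage of wild-type mice, 3 weeks old, and were cultured as a monolayer on plates, so that the cartilage matrix around them had been digested away. No source says whether the replicates came from separate animals or cultures, and the p-values measure the spread between these samples only. The libraries held 10992355 to 17456063 counts, so that 3 counts, the floor used here, equalled 0.172 to 0.273 CPM, the usual unit of counts relative to the library total.

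Abundances below are CPM after TMM scaling, which corrects the library totals for composition, with the mean ± SD (n = 4). Differences are given as the log2 fold change (log2FC) of IL-1β over vehicle ± its standard error (SE) from edgeR's quasi-likelihood test, and Padj is the p-value adjusted by Benjamini-Hochberg over the 14404 genes that reached more than 1 CPM in 4 or more samples. Of the 8 genes, 5 passed this filter. Among these 5, 3 were lower and 1 was higher after IL-1β at an adjusted p-value under 0.05, against 19.8% of all tested genes that were lower and 20.4% that were higher. The median log2FC of the 5 genes was -0.57, and that of all tested genes was -0.0012. With the further threshold of a log2FC beyond 1 in size, *Prkg1* and *Pde5a* remained, 1 in each direction, against 5.21% of all tested genes (2.35% lower and 2.86% higher).

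**Figure D1:**
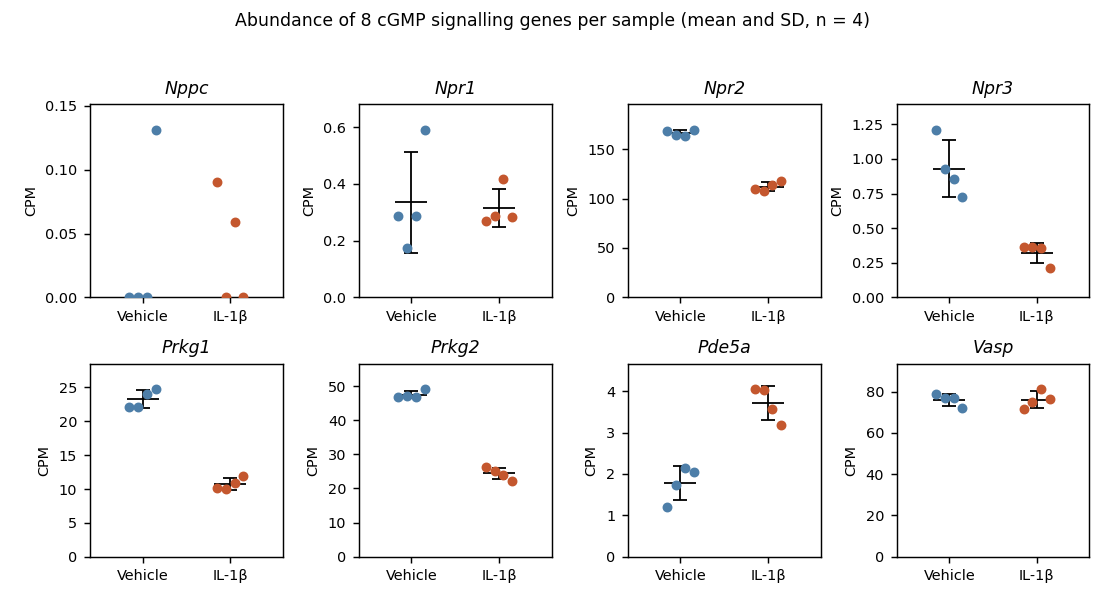
Abundance (CPM, y axis, starting at 0 and scaled for each gene) of the 8 genes in the 4 vehicle (blue) and 4 IL-1β samples (orange), with 1 point per sample, and the mean and SD in black except for *Nppc*. The groups lie apart for *Npr2*, *Npr3*, *Prkg1*, *Prkg2* and *Pde5a* and overlap for *Nppc*, *Npr1* and *Vasp*. Of all tested genes, 36.8% had groups that lie apart.

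The ligand of NPR2 was found at 2 reads or fewer in every sample. *Nppc* (chromosome 1, 86666291 to 86670571, GRCm38) had 1, 0, 1 and 0 reads in IL-1β replicates 1 to 4 and 0, 0, 0 and 2 reads in vehicle replicates 1 to 4. Every sample was thus at or under 3 counts, and no fold change is given. Of the other peptide ligands, *Nppa* (atrial peptide) had at most 6 reads in a sample and *Nppb* (B-type peptide) at most 2. *Ostn* encodes osteocrin, which binds NPR3. It was the only ligand on the list to pass the filter and fell from 7.83 ± 0.524 CPM with vehicle to 5.54 ± 0.845 CPM with IL-1β (log2FC -0.51 ± 0.119 SE, Padj = 0.000823). *Mme*, the peptide-degrading protease neprilysin, fell from 2.4 ± 0.459 CPM to 1.36 ± 0.326 CPM (log2FC -0.80, Padj = 0.00403).

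*Npr2* encodes the CNP receptor and spans 43631935 to 43651244 of chromosome 4. Abundance in IL-1β replicates 1 to 4 was 109, 107, 114 and 118 CPM and in vehicle replicates 1 to 4 it was 168, 165, 163 and 170 CPM. No IL-1β sample reached the lowest vehicle sample, as in 18.2% of all tested genes, and the IL-1β mean was 67.4% of the vehicle mean. The log2FC was -0.57 ± 0.0327 SE (Padj = 1.32e-14). On the opposite strand, the annotated gene *Gm12473* covers 5.70% of the exon bases of *Npr2*. *Gm12473* itself averaged 22.1 ± 2.12 CPM under vehicle against 16.6 ± 2.46 under IL-1β (log2FC -0.39, Padj = 0.000418), and whether strand was used in counting is not given in the sources used here. Opposite-strand genes also cover 11.7% of the exon bases of *Npr1* (*Gm16048*) and 3.42% of those of *Npr3* (*Gm5144*).

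The other natriuretic receptors were found at a few reads. *Npr3*, the clearance receptor (chromosome 15, 11839896 to 11907287), had 4, 5, 6 and 3 reads in IL-1β replicates 1 to 4 and 21, 16, 12 and 11 reads in vehicle replicates 1 to 4. Although it did not pass the filter, its groups did not overlap, as in 36.8% of all tested genes (two-sided exact permutation p = 0.0286, which 4 against 4 samples cannot go below). Its IL-1β mean of 0.323 ± 0.0732 CPM was 34.7% of the vehicle mean of 0.929 ± 0.206 CPM. In the fit without a filter, the log2FC was -1.52 ± 0.402 SE (Padj = 0.0013).

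*Npr1*, the receptor of the atrial peptide (chromosome 3, 90450591 to 90465866), had 3, 4, 7 and 4 reads in IL-1β replicates 1 to 4 and 5, 3, 4 and 9 reads in vehicle replicates 1 to 4. These ranges overlapped, and a difference was not detectable at this depth (exact permutation test, two-sided, p = 0.8). *Gucy2c*, the guanylin receptor, had at most 4 reads in a sample.

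For levels between genes, counts were also divided by the gene length listed beside them (RPKM, the TMM-scaled CPM per kilobase of gene length). On this scale *Npr2* made up 99.6% ± 0.0768 (SD, n = 4) of the summed level of the 3 natriuretic receptors with IL-1β and 99.5% ± 0.0792 with vehicle. Within a sample, the log2 ratio of *Npr3* to *Npr2* counts was -8.25, -8.22, -8.32 and -9.12 in IL-1β replicates 1 to 4 and -7.11, -7.48, -7.58 and -7.88 in vehicle replicates 1 to 4. The ratio was lower in every IL-1β sample than in any vehicle sample. The difference of the means was -0.96 ± 0.266 SE on the log2 scale (two-sided exact permutation p = 0.0286, and 0.0571 when adjusted over 2 ratios). Without IL-1β replicate 4, this difference was -0.75 (exact permutation p = 0.0571), and the groups still did not overlap.

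**Figure D2:**
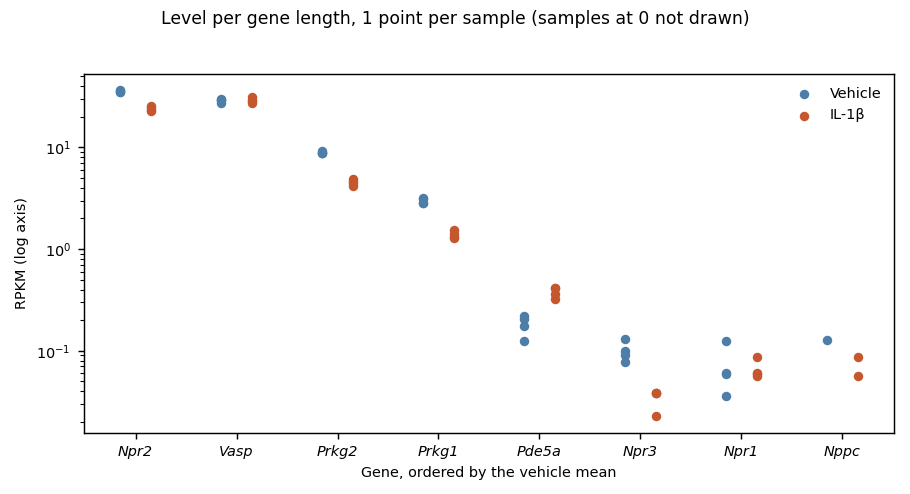
Level per gene length (RPKM, log axis) of the 8 genes, ordered by their vehicle mean, in the vehicle (blue) and IL-1β samples (orange), with samples at 0 not drawn. *Npr2* and *Vasp* lie highest in both groups, and *Npr3*, *Npr1* and *Nppc* lie lowest.

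The order of the levels per length differed between the groups at its top. With vehicle, *Npr2* (35.7 ± 0.628 RPKM) stood above *Vasp* (29 ± 1.12 RPKM), and with IL-1β *Vasp* (29.1 ± 1.54 RPKM) stood above *Npr2* (24.0 ± 1.04 RPKM). In both groups *Prkg2*, *Prkg1* and *Pde5a* followed in this order, without overlap among them. With vehicle, the ranges of *Pde5a* and *Npr3* overlapped, as did those of *Npr3* and *Npr1* and of *Npr1* and *Nppc*. With IL-1β, *Pde5a* stood apart from the last 3 genes, whose neighbours overlapped.

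The nitric oxide branch differed between its enzymes. *Nos2*, the inducible nitric oxide synthase, rose from 1.57 ± 0.259 CPM with vehicle to 67.2 ± 4.52 CPM with IL-1β (log2FC 5.40 ± 0.0892 SE, Padj = 1.54e-27), whereas *Nos3*, the endothelial form, had at most 4 reads in a sample. *Nos1*, the neuronal form, did not pass the filter, with 15 reads in all IL-1β samples together and 53 in all vehicle samples together. None of the 4 subunit genes of soluble guanylate cyclase, the receptor of nitric oxide, passed the filter. *Gucy1a1* and *Gucy1b1*, which encode the usual α and β subunits, had 1 and 3 reads in all IL-1β samples together and 3 and 2 reads in all vehicle samples together. *Gucy1a2*, an alternative α subunit, had 4, 4, 8 and 6 reads in IL-1β replicates 1 to 4 and 1, 9, 3 and 5 reads in vehicle replicates 1 to 4. Over all samples, the 4 genes summed to between 0.214 and 0.751 CPM.

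Both cGMP-dependent kinases were downregulated. *Prkg1*, whose product phosphorylates targets in smooth muscle, platelets and other cells, lies on the minus strand of chromosome 19 from 30564489 to 31765033. It had 10.2, 10.0, 10.9 and 11.9 CPM in IL-1β replicates 1 to 4 and 22.1, 22.1, 24.0 and 24.8 CPM in vehicle replicates 1 to 4, which puts the IL-1β mean at 46.2% of the vehicle mean. The log2FC was -1.11 ± 0.077 SE (Padj = 9.79e-13). RefSeq lists 2 start sites for *Prkg1*, and counts per gene cannot tell the isoforms that begin at them apart.

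*Prkg2* (chromosome 5, 98929773 to 99037351) encodes the membrane-bound kinase that acts below NPR2 in the growth plate. It had 26.3, 25.0, 24.1 and 22.3 CPM in IL-1β replicates 1 to 4 and 46.9, 47.2, 46.9 and 49.2 CPM in vehicle replicates 1 to 4. Every IL-1β sample lay below every vehicle sample, as in 18.2% of all tested genes. The log2FC of -0.97 ± 0.0514 SE (Padj = 2.27e-15) fell just short of the threshold of 1 in size, and the IL-1β mean was 51.4% of the vehicle mean.

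Whether the kinases changed by different amounts was tested on their ratio within a sample, which does not depend on the scaling of libraries. The log2 ratio of *Prkg1* to *Prkg2* counts was -1.37, -1.32, -1.15 and -0.90 in IL-1β replicates 1 to 4 and -1.09, -1.09, -0.96 and -0.99 in vehicle replicates 1 to 4. These values overlapped, and the mean difference of -0.15 (standard error 0.111) did not pass the two-sided exact permutation test (p = 0.286 before and after adjustment over 2 ratios). IL-1β replicate 4 lay above the vehicle samples while the other IL-1β samples lay below them, and without it the difference was -0.25 (exact permutation test, p = 0.0286, the smallest that 3 against 4 samples allow, with the sample left out after its position was known). Per length, *Prkg2* made up 76.7% ± 2.66 (SD, n = 4) of the kinase level with IL-1β and 74.8% ± 0.869 with vehicle. These shares use the length of 7799 bases listed for *Prkg1*, whereas the exons of the annotation used here cover 10861 bases.

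**Figure D3:**
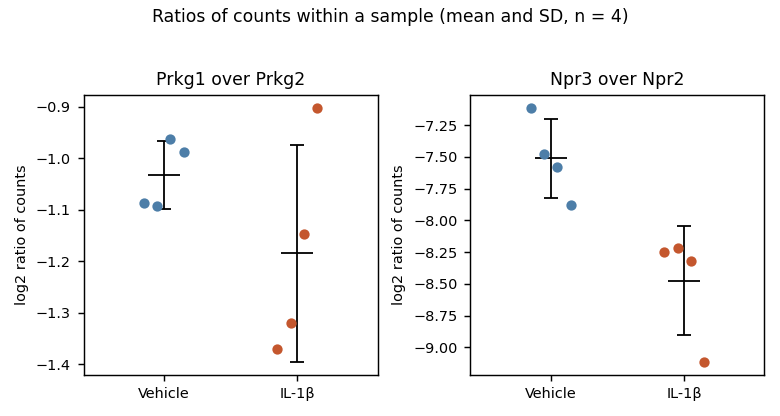
The log2 ratio of counts within a sample (y axis) for *Prkg1* over *Prkg2* and for *Npr3* over *Npr2*, with 1 point per sample and the mean and SD (n = 4). The kinase ratio overlaps between the groups, and the receptor ratio is lower in every IL-1β sample.

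Among the enzymes that break down cGMP, *Pde5a*, the cGMP-specific phosphodiesterase inhibited by sildenafil, was upregulated. It lies on chromosome 3 from 122728947 to 122859374. It had 4.05, 4.04, 3.56 and 3.19 CPM in IL-1β replicates 1 to 4 and 1.21, 1.73, 2.14 and 2.04 CPM in vehicle replicates 1 to 4, so that all IL-1β samples lay above all vehicle samples, as in 18.7% of all tested genes. The log2FC was 1.07 ± 0.185 SE (Padj = 2.58e-05). This rests on 45 to 60 reads in an IL-1β sample and 21 to 31 reads in a vehicle sample. Without vehicle replicate 1, the lowest, the log2FC was 0.91 and thus under the threshold of 1.

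Of the other 15 phosphodiesterase genes on the list, 7 passed the filter, of which 3 were lower, 1 was higher and 3 did not pass the test (57.1% called, against 40.2% of all tested genes). The calcium-dependent enzymes *Pde1a* and *Pde1b* fell, from 4.35 ± 0.501 CPM to 1.92 ± 0.426 CPM (log2FC -1.19, Padj = 2.03e-06) and from 1.76 ± 0.263 CPM to 0.873 ± 0.294 CPM (log2FC -1.06, Padj = 0.00138). *Pde3b*, a cAMP-hydrolysing enzyme that cGMP inhibits, fell from 45.2 ± 1.90 CPM to 31.2 ± 0.989 CPM (log2FC -0.54, Padj = 2.19e-10). Its relative *Pde3a* averaged 32.6 ± 0.796 CPM under vehicle against 34.0 ± 2.78 under IL-1β (Padj = 0.487). *Pde10a*, which hydrolyses both cyclic nucleotides, rose from 7.38 ± 0.890 CPM to 11.1 ± 0.359 CPM (log2FC 0.60, Padj = 1.83e-05). *Pde9a*, which is also specific for cGMP, did not pass the filter.

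*Vasp* (chromosome 7, 19256929 to 19271817) encodes an actin-binding protein whose phosphorylation is widely used as a readout of PRKG activity, which RNA levels do not measure. It had 71.6, 74.7, 81.3 and 76.6 CPM in IL-1β replicates 1 to 4 and 78.7, 76.8, 76.7 and 71.8 CPM in vehicle replicates 1 to 4. The groups overlapped, and the log2FC was 0.0042 (95% interval -0.08 to 0.09, Padj = 0.95). Of its relatives, *Enah* rose slightly, from 58.4 ± 0.901 CPM to 65.3 ± 1.97 CPM (log2FC 0.16, Padj = 0.00156), and *Evl* averaged 18.5 ± 0.348 CPM under vehicle against 17 ± 1.13 under IL-1β (Padj = 0.176).

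Of the other 9 substrates and partners of the kinases on the list, 8 passed the filter, of which 4 were lower, 1 was higher and 3 did not pass the test (62.5% called, against 40.2% of all tested genes). *Mrvi1*, which encodes the PRKG1 partner IRAG at the calcium store, fell from 1.6 ± 0.326 CPM to 0.481 ± 0.173 CPM (log2FC -1.71 ± 0.300 SE, Padj = 3.01e-05), from 20 to 34 reads in a vehicle sample and 4 to 10 in an IL-1β sample. *Hspb6*, a small heat shock protein and kinase substrate, fell from 56.6 ± 1.95 CPM to 30.7 ± 2.24 CPM (log2FC -0.87, Padj = 7.81e-15). The other called genes of this list, *Itpr1*, *Ppp1r12a* and *Gsk3b*, had log2FC values of -0.12, -0.12 and 0.10, and that of *Itpr1* did not pass the test by DESeq2 (Padj = 0.0758).

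In the FGFR3 branch that CNP is known to oppose, *Fgfr3* fell from 139 ± 6.06 CPM with vehicle to 25.3 ± 2.35 CPM with IL-1β (log2FC -2.45 ± 0.0497 SE, Padj = 1.92e-25). It had 22.2, 25.7, 25.5 and 27.9 CPM in IL-1β replicates 1 to 4, against 134 to 146 CPM in the vehicle samples. Below the receptor, 4 kinase genes rose, with small log2FC values of 0.20 (*Mapk3*) to 0.41 (*Map2k1*). Of all tested genes, 20.4% were higher after IL-1β.

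Over all pathway lists, the 8 genes left out, 29 of 57 genes passed the filter. Of these, 12 were lower and 9 were higher after IL-1β (72.4%), against 40.2% of all tested genes, and 5 were past the threshold of 1 in size. Their median log2FC was -0.10. The lists were chosen with earlier results of these data known, so that their shares are not those of a blind choice. The remaining 28 genes included all 6 cyclic nucleotide-gated channel genes, each at 3 counts or fewer in every sample. The 2 export pumps differed in direction, with a log2FC of -0.30 for *Abcc5* and 0.11 for *Abcc4*.

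**Figure D4:**
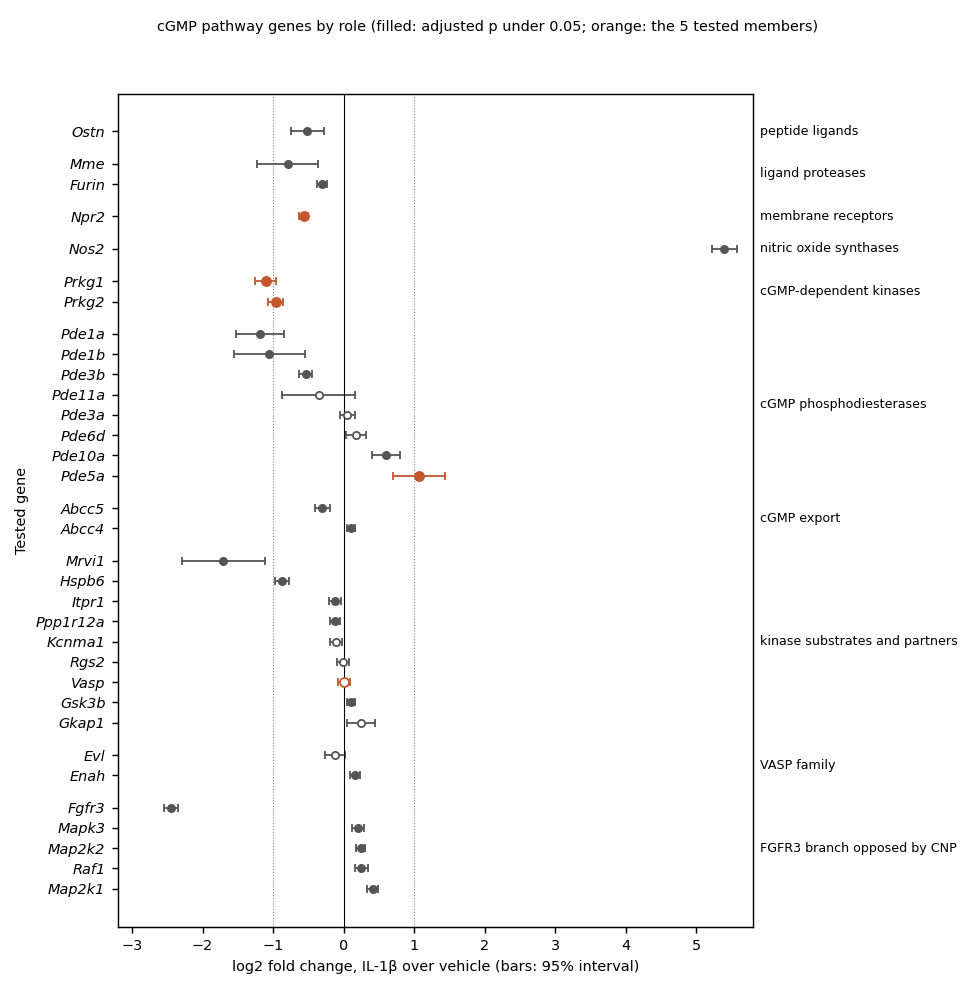
The log2FC of IL-1β over vehicle (x axis, with its 95% interval) for tested pathway genes reported here, grouped by role. Filled points passed the test, orange points are the 5 tested genes of the 8, and dotted lines mark -1 and 1. *Nos2* lies far to the right at 5.40 and *Fgfr3* farthest to the left at -2.45.

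The study listed *Prkg1* among the predicted targets of miR-146a-5p, a microRNA that pairs through its seed (bases 2 to 8) with matching sites in 3′ untranslated regions. Such sites were searched in the longest coding transcript of all 8 genes, without regard to conservation. The study instead took conserved sites from TargetScan, 6mers included, and kept only genes that were downregulated after IL-1β. The mature sequence from RefSeq is shown first, with its seed in capitals, as it defines what was searched. Under it stand 30-base stretches of the 3′ untranslated regions that hold the 7mer and 8mer matches, on the strand of the gene and with the match in capitals, to show where in each transcript pairing bases occur.
miR-146a-5p: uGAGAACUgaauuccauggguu
Prkg1: tgctctctctgAGTTCTCgtatatgtaaat
Pde5a: agagagatcggAGTTCTCAgactattcaac
Npr3 (first site): gcatccaccccAGTTCTCAgaaccagaggg
Npr3 (next site): acagtgggaaaAGTTCTCtacctggctata
Npr3 (last site): tataacagtatGTTCTCAttaaacgtatac

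The *Prkg1* match, a 7mer of the seed, lies 4268 to 4274 nucleotides into a 3′ untranslated region of 4749 nucleotides, on chromosome 19 from 30564964 to 30564970. *Pde5a*, which was upregulated, has an 8mer (the 7mer followed by A) at nucleotides 3493 to 3500 of 4040, on chromosome 3 from 122858825 to 122858832. *Npr3* has 3 matches, an 8mer at nucleotides 1894 to 1901, a 7mer at 2032 to 2038 and a 7mer of the other kind (6 seed bases followed by A) at 5253 to 5259 of 5281 nucleotides. No match of 7 or 8 bases was found for *Npr2* (266 nucleotides), *Prkg2* (2237 nucleotides), *Vasp* (788 nucleotides), *Npr1* or *Nppc*. *Prkg2* and *Vasp* each hold a match of 6 bases.

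Of the 11937 tested genes with an annotated 3′ untranslated region, 20.8% had at least 1 match of 7 or 8 bases and 4.64% had an 8mer. Among the 4 genes called after IL-1β, *Prkg1* (downregulated) and *Pde5a* (upregulated) held a match of 7 or 8 bases. *Npr2* and *Prkg2*, both downregulated, held no match of this length. The regions of these 4 genes ranged from 266 nucleotides in *Npr2* to 4749 in *Prkg1*, and the 20.8% was not matched for length. A match is a description of the sequence, and binding of the microRNA was not measured in these data.

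**Figure D5:**
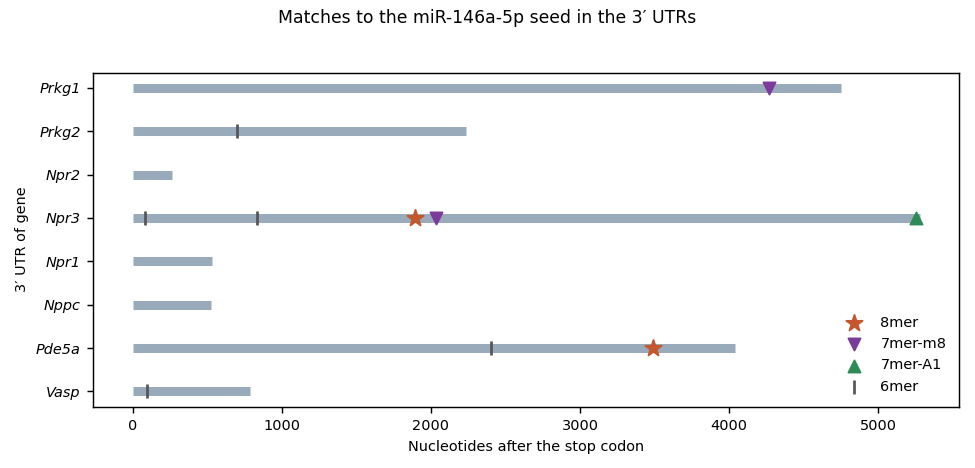
The 3′ untranslated regions of the 8 genes drawn to scale (x axis, nucleotides after the stop codon), with matches to the miR-146a-5p seed by kind. *Npr3* carries 3 matches of 7 or 8 bases, *Prkg1* and *Pde5a* 1 each, and the other genes none.

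The genes most like *Prkg1* over the 8 samples, by Pearson's r of log2(CPM + 1), were *Adgrf5* (r = 0.998), *Scube1* (r = 0.997) and *Fzd9* (r = 0.996). Those most like *Npr2* were *Wisp2*, *Adgrf5* and *Syt8* (each r = 0.998), and those most like *Npr3* were *Eif2s1* (r = 0.988), *Pkmyt1* (r = 0.985) and *Cct2* (r = 0.982). With 4 samples in each of 2 groups, such values were shared by many genes. In all, 788 tested genes had an r above 0.95 with *Prkg1*, 798 with *Npr2* and 101 with *Npr3*.

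The labelled cell type was checked by marker lists. All 9 chondrocyte markers passed the filter, with *Col2a1* at 11191 ± 195 CPM with vehicle. All 9 were lower after IL-1β, against 19.8% of all tested genes. Their summed level was 16119 to 16737 CPM in the vehicle samples and 4181 to 4593 CPM in the IL-1β samples, and *Sox9*, the chondrogenic transcription factor, had a log2FC of -1.37. Of the 4 markers of hypertrophic chondrocytes, the growth plate cells at the end of maturation, 3 were tested and lower, and the list summed to 284 to 311 CPM with vehicle and 98.2 to 112 CPM with IL-1β. These markers moved with *Npr2*, *Prkg1*, *Prkg2* and *Fgfr3*, and their part in those changes was not tested. In bulk samples, fewer cells of a type and less RNA per cell cannot be told apart.

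Markers were also listed for other cell types, among them those in which *Prkg1*, *Pde5a* and *Vasp* are known to be expressed. Of the 5 smooth muscle and pericyte markers, *Acta2* alone passed the filter, falling from 14.4 ± 1.05 CPM to 3.47 ± 0.314 CPM, while *Myh11*, *Cnn1*, *Des* and *Rgs5* had 0 to 12 reads in a sample. The list summed to 14.8 to 16.4 CPM with vehicle and 3.87 to 5.23 CPM with IL-1β, and its part in the change of *Prkg1* was not tested. None of the 5 endothelial markers passed the filter, and they summed to 0.649 to 1.25 CPM over all samples. The 3 platelet markers summed to 2.48 to 5.23 CPM, and the only tested one, *Itga2b*, did not pass the test. The macrophage markers summed to 11.5 to 12.6 CPM with vehicle and 15.9 to 18.9 CPM with IL-1β, with *Cd68* higher, *Lyz2* lower by edgeR (Padj = 0.0364) but not by DESeq2 (Padj = 0.108), and *Ptprc* and *Adgre1* at 0 to 6 reads in a sample. The osteoblast markers fell in 4 of 4 genes tested (94.3 to 107 CPM with vehicle, 29.8 to 36.9 CPM with IL-1β), against 19.8% of all tested genes. The synovial fibroblast markers rose in 3 of 3 genes tested, against 20.4% of all tested genes (862 to 913 CPM with vehicle, 2023 to 2139 CPM with IL-1β). Nearly all of the latter sum was *Prg4*, lubricin, which superficial chondrocytes also make (856 ± 21.7 CPM with vehicle, 2011 ± 47.1 CPM with IL-1β), and the untested *Thy1* had 28 reads in all vehicle samples together and 10 in all IL-1β samples together.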

How the data were processed

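RNA-Seq of 4 IL-1β and 4 vehicle samples was used. The authors used cutadapt for trimming, STAR for alignment (mm10, GENCODE vM20) and featureCounts, and deposited whole-number counts per gene symbol. Whether these precede or follow their RUVseq batch correction is not given in the sources used here. The deposited gene length (in bases) served for RPKM only.

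Counts were normalized by TMM and tested with edgeR 4.0.16 (limma 3.58.1, R 4.3.3), with a term for treatment only, on the 14404 genes that reached more than 1 CPM in 4 or more samples. The threshold of 1 on the log2 scale is the fold change of the study's methods. Its results text also names a log2 fold change of 2, which none of the 5 tested genes reached. Ratios used an exact permutation test, two-sided. The standard error of a log2 fold change was derived as its absolute value over the square root of edgeR's F statistic. Intervals are the log2 fold change ± 1.96 of these standard errors. This normal approximation is somewhat narrower than the degrees of freedom of the F test would give. Positions and 3′ untranslated regions came from GENCODE vM21 (GRCm38, the assembly of mm10), and the microRNA from RefSeq (GRCm38.p6). Other steps ran in Python 3.11.15 with scipy 1.17.1.

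Both tools were tested on simulated data of this comparison: of 200 altered genes among 14404, edgeR found 194 with 9 false calls and DESeq2 190 with 4. The altered genes changed by at least 1 on the log2 scale and were far fewer than the 5796 called in these data. The recovery of smaller changes was thus not tested. Replicate pairs within a group differed by more than counting error (chi-square per degree of freedom 1.98 to 6.34), so each counted as 1 sample. Totals of 10992355 to 17456063 counts give a CPM of 0.172 to 0.273 for 3 counts, a floor that covers counting error only.

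Alternatives were DESeq2 1.42.0, its size factors, total library size, other filters, a replicate block, 1 RUVs factor and each sample left out. All 8 genes were named, other pathway genes if always listed or if called with a log2 fold change beyond 0.5 in size, and the 3 genes most like each of *Prkg1*, *Npr2* and *Npr3*. Other genes named were chosen after their values were seen. The 8 genes and the lists were chosen with earlier results of these data known. The miRNA-Seq and the human samples were not analysed here, and 1 gene of the pathway lists is counted in the totals but not reported here.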

Additional observations from a re-analysis of the deposited data

Results flagged for a closer look

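Among the named genes that passed the filter, the extreme sample of a group lay far from the other 3 in 2 of 36 groups compared (gap over range above Dixon's 95% limit). About 1 in 20, or 1.8 of them, would do so by chance. In vehicle replicate 4, *Prkg2* reached 49.2 CPM, whereas vehicle replicates 1 to 3 had 46.9 to 47.2 CPM. In IL-1β replicate 1, *Nos2* reached 73.9 CPM, whereas IL-1β replicates 2 to 4 had 64.4 to 65.6 CPM. Leaving out any sample gave a log2FC of -0.996 to -0.92 for *Prkg2* and of 5.32 to 5.51 for *Nos2*.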

How the results depend on the processing

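The 4 calls among the 8 genes kept their direction and an adjusted p-value under 0.05 with DESeq2, DESeq2's size factors, total library size, both other filters, the replicate block, the RUVs factor and each sample left out. Over all of these, the log2FC of *Prkg1* lay between -1.16 and -1.07, that of *Npr2* between -0.59 and -0.54 and that of *Pde5a* between 0.91 and 1.16. Genes called with a log2FC beyond 1 in size numbered 751. They were 511 when all 8 samples had to exceed 1 CPM, and 1206 without a filter, where more genes were tested. Without a filter, *Npr3* was called too, so that 5 of the 8 genes were called and 3 were beyond 1 in size. Of all 32379 genes in that fit, 5810 were called and 1206 were beyond 1 in size. With each sample left out, 1 to 2 of the 8 genes were beyond 1 in size, *Pde5a* dropping out without vehicle replicate 1. Of all tested genes, 649 to 722 were beyond 1 in size in these fits. The difference in the *Prkg1* to *Prkg2* ratio ranged from -0.25 to -0.090 when any sample was left out, and that in the *Npr3* to *Npr2* ratio from -1.08 to -0.75. Without IL-1β replicate 4, the groups did not overlap in either ratio (exact permutation p = 0.0286 and p = 0.0571). Such a test of 3 against 4 samples, with 0.0286 as its smallest p, says little about stability. The calls of *Itpr1* and *Lyz2* were lost with DESeq2 (Padj = 0.0758 and 0.108), and that of *Lyz2* also with the replicate block (Padj = 0.055) and without a filter (Padj = 0.075). Leaving out 1 sample also ended them, that of *Itpr1* for IL-1β replicates 2 and 3 and vehicle replicates 1 and 4 (highest Padj = 0.141), and that of *Lyz2* for IL-1β replicates 3 and 4 and vehicle replicates 1 and 3 (highest Padj = 0.126). Replicate numbers did not pair the samples (r of deviations from the group means, across genes, -0.0699 to 0.0416 for the same number, and 1 of 8 samples correlated best with their own number). With the replicate block, 5643 genes in place of 5796 had an adjusted p-value under 0.05, and the *Npr3* to *Npr2* difference was -0.96 (exact sign-flip test, p = 0.125, the smallest that 4 pairs allow). Depth limits *Nppc*, *Npr1*, *Npr3* and the soluble cyclase genes, which had 21 reads or fewer in every sample.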
